A study of Temnothorax americanus and Temnothorax ambiguus and Temnothorax curvispinosus with 48 samples.

Results

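Temnothorax ambiguus is a small host ant that is raided by the slavemaker T. pilagens. The 8 libraries described here are those of T. ambiguus workers, 4 from nest defense (DR_692 to DR_695) and 4 from before a raid (BR_688 to BR_691), out of 48 libraries of 6 species. They were chosen by the behavior and the species that the labels give. Each library is RNA of a pool of whole workers that came from several colonies. Nest defense workers were caught while they fought raiders near the nest during staged laboratory raids. The workers from before a raid were foragers, taken on the first day of the trials. The 2 groups thus differ both in task (fighting or foraging) and in exposure to a raid. They may also differ in days spent in the trials, which were repeated daily until a raid occurred. Hour of sampling was not controlled either. These differences cannot be told apart. No treatment or genotype is named for either group, worker age is not given, and a pool mixes all tissues of its workers. The methods of the study state that the same colonies were pooled in both states, but neither the labels nor the column names say which libraries share them, so the tests have no term for colony. The p-values below measure the spread between pools.

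In ants, work is divided among nestmates. Workers inside the nest tend brood and usually carry larger fat stores and more active ovaries than foragers, which are as a rule older and leaner. Vitellogenin, the main yolk protein precursor of insects, is made in the fat body, an organ that also makes and stores fat and secretes antimicrobial peptides, and is taken up by growing oocytes through the vitellogenin receptor. The comparison asks which transcripts differ between workers that defend the nest and workers sampled before any raid. In pooled whole bodies, more cells of a tissue and more RNA per cell of that tissue cannot be told apart.

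The table holds 43664 contigs (assembled transcripts), of which 33331 had enough reads to be tested. Total counts were 10097289 to 13063864 per nest defense library and 11810679 to 17109880 per before raid library. Levels are given as CPM, the counts of a contig scaled to a common library size with TMM factors. Pairs of libraries had Spearman correlations of 0.857 to 0.9 across contigs, and the most similar pair was of different states (DR_694 and BR_690, 0.9). The before raid library most similar to DR_693 was BR_689 (0.884), that to DR_695 was BR_691 (0.889) and that to DR_692 was also BR_691 (0.89). The first principal component of log2 CPM held 20.1% of the variance and the second 18.6%. No contig passed the quasi-likelihood test of edgeR at an adjusted p of 0.05 (0% of 33331), and the lowest adjusted p was 0.117. At an unadjusted p under 0.05 the same test had 2683 contigs, or 8.05% of those tested, with 1309 (3.93%) higher and 1374 (4.12%) lower in nest defense. Other tests on the same contigs called between 5 and 470: limma-voom with quality weights 5 (0.015%), the likelihood ratio test of edgeR 300 (0.9%) and DESeq2 470 (1.41%, with 0.735% higher and 0.675% lower). All 5 calls of limma-voom were higher in nest defense.

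Protein names were available for contigs that the authors had called between the states on these same libraries. Their table lists 380 contigs, 143 of them matched to a protein with a name, under 114 different names, and 76 of the 143 best matches were to the leafcutter ant Acromyrmex echinatior. Of the 143 named contigs 126 were tested, 69 with a log2 fold change above 0 (higher in nest defense) and 57 below 0. Because the authors' calls chose them, all 126 had an unadjusted p under 0.05, and the direction of a contig is a description and no independent evidence. In 54 of the 126 every nest defense library was above every before raid library, and in 44 every one was below, against 2.83% and 2.53% of all tested contigs (5.36% in either direction). The remaining 28 overlapped between the states. The log2 fold changes of the 126 contigs reached 6.04 and -4.62, and the smallest was 0.67 in size. Each of the 126 kept its sign when any 1 library was left out.

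**Figure D1:**
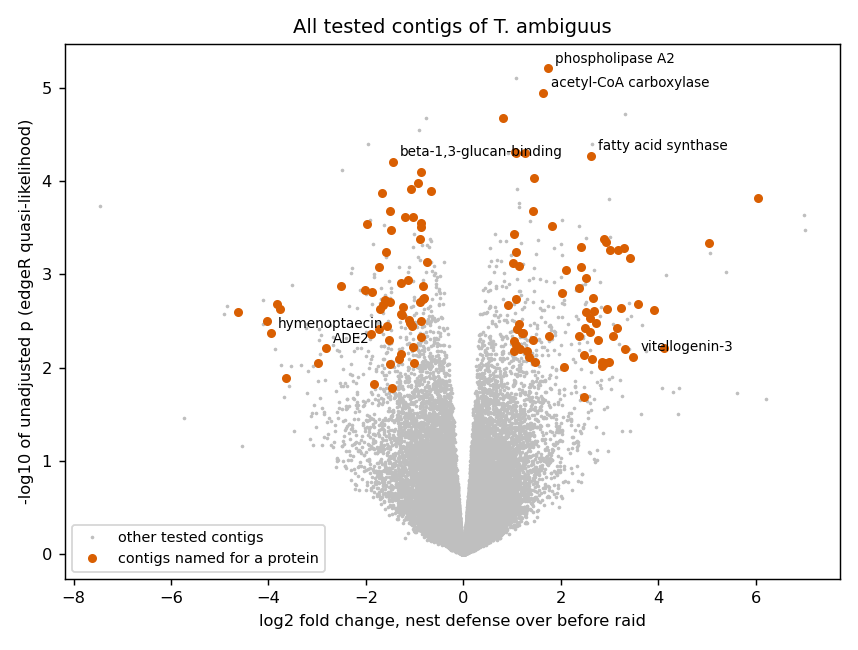
Each point is 1 of the 33331 tested contigs, with its log2 fold change (nest defense over before raid) on the horizontal axis and -log10 of the unadjusted p of the edgeR quasi-likelihood test on the vertical axis. Orange points are the 126 tested contigs with a protein name, which the authors' calls placed toward the top, 69 to the right of 0 and 57 to the left.

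The contig with the smallest p over the whole table matched a group 3 secretory phospholipase A2, a member of the enzyme family that includes bee venom phospholipase (rep_c3837). It had 51.1, 66.2, 64.5 and 72.0 CPM in the nest defense libraries DR_692 to DR_695, against 13.6, 23.8, 20.6 and 18.2 CPM in the before raid libraries BR_688 to BR_691. The lowest nest defense library was well above the highest before raid library. The log2 fold change was 1.74 ± 0.18 (SE) and the adjusted p was 0.117 by the edgeR quasi-likelihood test, 0.0391 by limma-voom and 1.75e-10 by the edgeR likelihood ratio test. Next among named contigs was acetyl-CoA carboxylase (rep_c11951), the enzyme that commits acetyl-CoA to fatty acid synthesis. Its levels were 538, 684.8, 567 and 685.9 CPM in nest defense and 132, 224, 235 and 202 CPM before a raid. The states stood well apart, with a log2 fold change of 1.64 ± 0.19 and an adjusted p of 0.117 by the edgeR quasi-likelihood test and 0.0391 by limma-voom. Fatty acid synthase (rep_c3932) and 2 contigs without a protein name (rep_c2024 and rep_c21714) were the other contigs past 0.05 in limma-voom, with adjusted p of 0.0422, 0.0391 and 0.0391. The unnamed rep_c21714, for which no protein match is given, had 83.5, 103, 80.6 and 107 CPM in nest defense, against 6.495, 18.5, 23.6 and 11.6 CPM before a raid. The chromatin remodelling subunit matched by rep_c2088 (SWI/SNF subfamily B member 1) had a small difference with little spread, at 80.3 ± 7.29 CPM in nest defense and 45.4 ± 3.04 CPM before a raid (SD, n = 4 each).

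Enzymes that build fatty acids were higher in nest defense in every contig the authors had called. The list held 8 of these contigs at first and was completed to 13 after values were seen. All 13 were tested and higher in nest defense, 12 of them with no overlap between the states, against 2.83% of all tested contigs. The likelihood ratio test of edgeR called all 13 (0.477% of all tested contigs were called higher) and the quasi-likelihood test none, but as called contigs they were chosen on these libraries. Their median log2 fold change was 1.44, against -0.01 over all tested contigs. Fatty acid synthase, which assembles the carbon chain, had 3007, 4309, 3107 and 4137 CPM in nest defense and 249, 694.9, 915 and 515 CPM before a raid (rep_c3932). Even the lowest nest defense library was far above the highest before raid library, and the log2 fold change was 2.62 ± 0.36 (adjusted p 0.127, edgeR quasi-likelihood test). A second synthase contig (rep_c22801) differed less, with 47.0, 50.6, 42.6 and 54.4 CPM in nest defense, against 17.3, 19.9, 30.9 and 26.6 CPM before a raid, and a log2 fold change of 1.04. The remaining one, named fatty acid synthase-like (rep_c26567), averaged 2.57 ± 0.88 CPM in nest defense and 0.389 ± 0.324 CPM before a raid. Contigs with one name can be separate genes or parts of 1 gene, and reads may be split among them, so their values were not added.

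The steps around the synthase lay in the same direction. ATP-citrate synthase, which makes acetyl-CoA in the cytosol from citrate, had 527, 866, 928 and 1293 CPM in nest defense and 172, 258, 387 and 203 CPM before a raid. Acetyl-coenzyme A synthetase, which makes acetyl-CoA from acetate (rep_c1814), had 235, 304, 264 and 256 CPM in nest defense, against 68.4, 114, 133 and 75.8 CPM before a raid. Neither enzyme overlapped between the states, and their log2 fold changes were 1.82 ± 0.32 and 1.44 ± 0.22. A pair of enzymes that supply NADPH, the reducing power of the pathway, were among the named contigs with the smallest p. NADP-dependent malic enzyme (rep_c8377) had 938, 1012, 771 and 1140.2 CPM in nest defense and 523, 455, 389 and 481 CPM before a raid, and 6-phosphogluconate dehydrogenase (c37450) had 166, 225, 195 and 254 CPM in nest defense and 74.2, 75.4, 112 and 86.2 CPM before a raid. Both were higher in every nest defense library, with log2 fold changes of 1.06 ± 0.15 and 1.27 ± 0.18, and both had an adjusted p of 0.127 in the edgeR quasi-likelihood test. The sterol regulatory element-binding protein, a transcription factor that controls lipid synthesis genes in animals (rep_c13003), averaged 288 ± 37.1 CPM in nest defense and 141 ± 39.6 CPM before a raid. Pyruvate carboxylase (rep_c8115), which replenishes the citrate that leaves the mitochondrion, was the contig of the group whose states overlapped, since DR_692 (49.9 CPM) was below BR_690 (52.3 CPM).

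Chain elongation and desaturation had larger but more scattered differences. The list of desaturases, reductases and other hydrocarbon or pheromone enzymes had 4 called contigs. The 2 desaturases among them were higher in nest defense, and the 2 lower contigs were esterases E4 and FE4. Elongation of very long chain fatty acids protein 6 lengthens the products of the synthase. Its contig rep_c13506 had 79.5, 140.1, 138 and 210.3 CPM in nest defense, against 10.2, 12.7, 71.6 and 7.92 CPM before a raid, so BR_690 alone came close to the nest defense range. With BR_690 in the fit the log2 fold change was 2.47 ± 0.71 with an adjusted p of 0.408, and without it 3.79 ± 0.36 with an adjusted p of 0.0496 (edgeR quasi-likelihood test). The acyl-CoA Delta(11) desaturase, of a family that makes moth pheromones and unsaturated hydrocarbon precursors in insects (rep_c8447), repeated this arrangement of libraries. It had 2805, 5342, 2333 and 3369 CPM in nest defense and 87.7, 246, 1118 and 112 CPM before a raid, and the 3 before raid libraries other than BR_690 lay far below the lowest nest defense library. The log2 fold change was 3.15 ± 0.81 with an adjusted p of 0.353, and the change ranged from 2.81 to 4.54 when single libraries were left out. Stearoyl-CoA desaturase 5, which introduces a double bond into long-chain acyl-CoA (rep_c2708), averaged 34.5 ± 21.3 CPM in nest defense, against 3.81 ± 2.45 CPM before a raid.

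Proteins that carry, store or release lipid were named in 7 contigs, of which 5 were tested. All 5 were higher in nest defense with no overlap, against 2.83% of all tested contigs, but the authors' calls on these libraries had chosen them. Their median log2 fold change was 2.38. The 5 include the phospholipase A2 contig described above (rep_c3837), and 3 of the 5 share a protein name. Lipid storage droplets surface-binding protein 2, a coat protein of fat droplets in Drosophila (rep_c4486), had 191, 355, 152 and 317 CPM in nest defense and 105, 63.5, 145 and 120.2 CPM before a raid. DR_694 was only just above BR_690 for this coat protein, and the log2 fold change was 1.23 ± 0.32. Alpha-tocopherol transfer protein-like contigs, members of a family that binds small lipids, numbered 3, and the most abundant (rep_c13101) averaged 20.3 ± 4.06 CPM in nest defense and 3.87 ± 3.44 CPM before a raid. In another (c201) DR_695 was far above the rest, at 33.8 CPM, and its log2 fold change of 2.84 came to 1.18 without that library. A second phospholipase contig and a phosphatidylinositol transfer protein were the members with too few reads to test.

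Yolk and oogenesis contigs were all higher in nest defense. The group had 8 members, 7 of them tested, with 7 log2 fold changes above 0 and a median of 2.41. In 3 contigs the states did not overlap, against 2.83% of all tested contigs that were higher without overlap. The list had 4 members before it was widened after values were seen. The likelihood ratio test of edgeR called 5 of the 7, against 0.477% of all tested contigs called higher, among members that the authors' calls had chosen. Vitellogenin-3 (rep_c8450) had 7613, 7806, 1597 and 9583 CPM in nest defense and 42.8, 342, 1711 and 289.8 CPM before a raid. The states overlapped because DR_694 was slightly below BR_690, while the other 3 nest defense libraries were well above BR_690, and BR_688 was at the bottom. The log2 fold change was 3.48 ± 1.02 with an adjusted p of 0.417 by the edgeR quasi-likelihood test. Vitellogenin-1 had 2755, 1586, 445 and 2275 CPM in nest defense, against 19.9, 84.3, 490.0 and 118 CPM before a raid. Its libraries stood in nearly the same places, again with DR_694 just under BR_690, and the log2 fold change was 3.31 ± 0.93. The vitellogenin receptor, which brings yolk protein into the oocyte (rep_c12170), did not overlap, with 46.7, 107, 32.6 and 101 CPM in nest defense and 2.51, 9.85, 12.7 and 25.8 CPM before a raid. DR_694 was the lowest nest defense library and BR_691, not BR_690, the highest before raid library, and the log2 fold change was 2.49 ± 0.64.

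**Figure D2:**
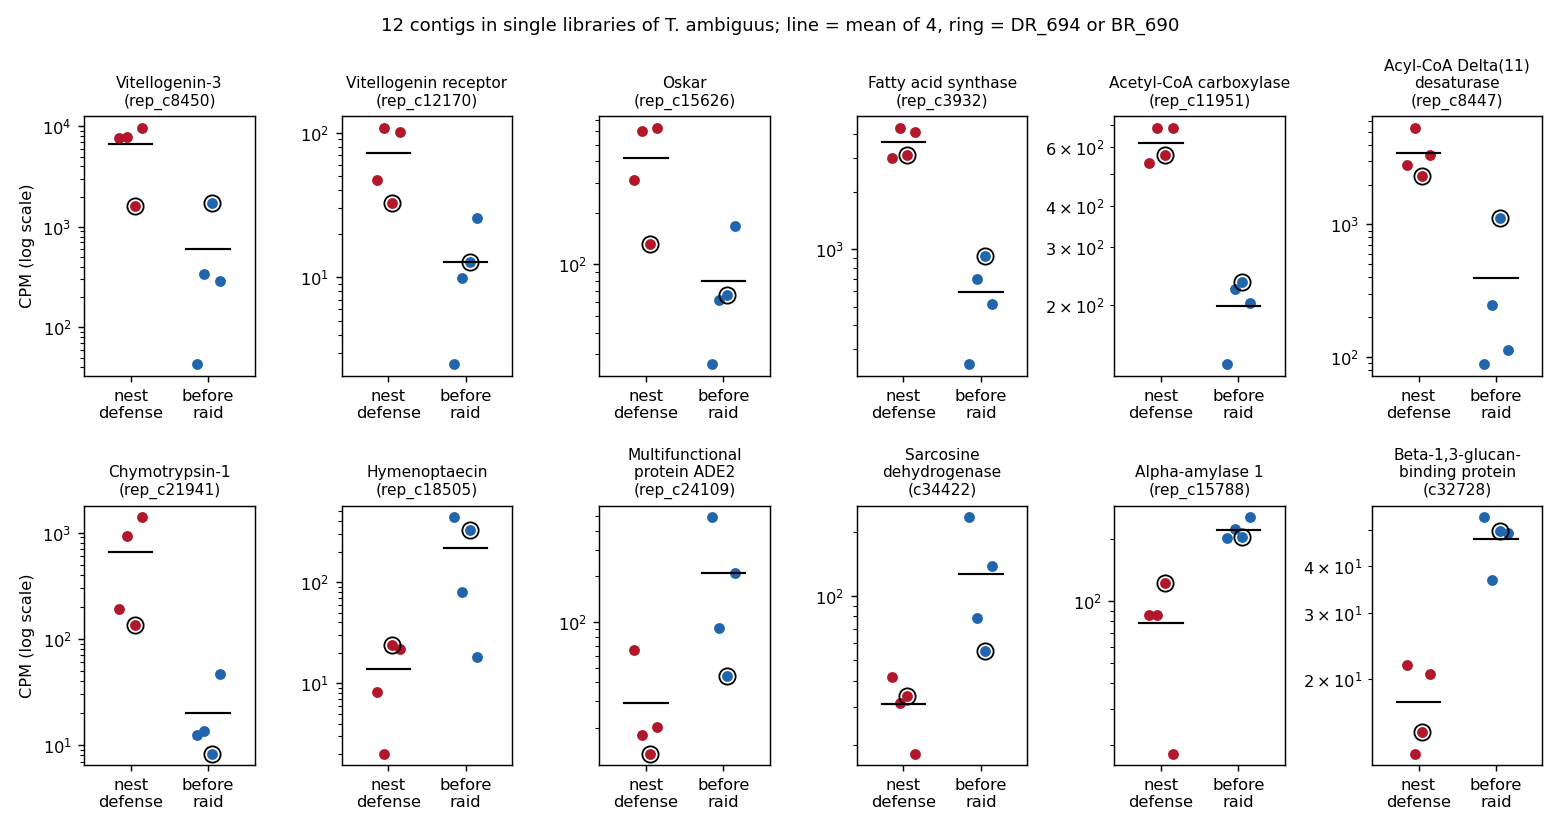
CPM (log scale) of 12 contigs in single libraries, with nest defense in red on the left and before raid in blue on the right of each panel, the line at the mean of 4 libraries and a ring around DR_694 and BR_690. The ringed libraries are the ones that meet or come close to each other in vitellogenin-3 and the desaturase, while the states stay apart in acetyl-CoA carboxylase and beta-1,3-glucan-binding protein.

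Maternal-effect genes lay in the same direction as the yolk proteins. Oskar, which assembles the germ plasm in the Drosophila oocyte (rep_c15626), had 311, 604, 131 and 624 CPM in nest defense and 26.1, 62.2, 66.0 and 168 CPM before a raid. BR_691 was above DR_694, and the log2 fold change was 2.37 ± 0.63 (adjusted p 0.374, edgeR quasi-likelihood test). Exuperantia, needed to place maternal mRNA in the Drosophila egg (rep_c13132), had 123, 158, 105 and 197 CPM in nest defense, against 38.1, 71.5, 79.9 and 92.6 CPM before a raid. It differed by less, at 1.05 ± 0.29 on the log2 scale, without overlap. Nudel, a serine protease that Drosophila follicle cells secrete onto the egg (c50), averaged 22.9 ± 14.6 CPM in nest defense and 4.28 ± 1.90 CPM before a raid, with a log2 fold change of 2.41 and no overlap. The cytoplasmic poly(A) polymerase gld-2-like protein A (rep_c1530) had a log2 fold change of 1.16. Follicle cell protein 3C-1 (c34842), which was not tested, had 34.2 CPM in DR_695 and at most 1.05 CPM in the other 7 libraries. The fat body storage protein arylphorin subunit alpha (rep_c8714) had 134, 49.5, 3.64 and 38.2 CPM in nest defense and 17.9, 2.93, 9.75 and 10.1 CPM before a raid. DR_694 was within the before raid range, the states overlapped, and the adjusted p was 0.528. Because names exist for called contigs only, lists of tissue markers could not be followed as a whole across the states, and the part of tissue proportions in these values was not tested.

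Protease contigs formed the largest group, with 21 members of which 16 were tested. A total of 13 were higher in nest defense and 3 were lower. Among all 21, 13 and 2 contigs did not overlap, against 2.83% and 2.53% of all tested contigs. The likelihood ratio test of edgeR called 12 higher and 2 lower, against 0.477% and 0.423% of all tested contigs, again among members that the authors' calls had chosen. The largest difference among the tested contigs of the group was that of chymotrypsin-1, a digestive protease (rep_c21941), with 189, 931, 135 and 1389 CPM in nest defense, against 12.4, 13.6, 8.32 and 46.4 CPM before a raid. DR_693 and DR_695 were far above DR_692 and DR_694, and BR_691 was the highest before raid library. The log2 fold change was 5.03 ± 0.94 with an adjusted p of 0.236 (edgeR quasi-likelihood test). The second chymotrypsin-1 contig (rep_c8955) had 6.62, 15.6, 2.19 and 27.3 CPM in nest defense and 1.29, 2.69, 0.625 and 0.946 CPM before a raid. Here DR_694 was below BR_689, and DR_693 and DR_695 were again the highest.

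A like unevenness was seen in trypsin-7, another digestive protease. Its 3 contigs had enough reads in too few libraries to be tested. The contig c22108 had 0.15, 3.55, 0.104 and 43.2 CPM in nest defense, against 0.129, 0, 0 and 0 CPM before a raid, and rep_c28808 had 0, 2.71, 0 and 26.4 CPM in nest defense and 0, 0.325, 0.125 and 0 CPM before a raid. The third contig (c22109) had 0, 0.931, 0 and 10.4 CPM in nest defense and 0 counts in all before raid libraries, and against a floor of 3 counts over that state it was at least 60.3-fold higher. Almost all trypsin-7 signal was in DR_695 and DR_693, and DR_692 and DR_694 were close to the before raid libraries.

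Peptidases that trim protein ends made up much of the rest. Zinc carboxypeptidase A 1, which removes C-terminal residues, was named in 4 contigs with log2 fold changes of 4.11, 3.57, 2.93 and 2.76. Leukotriene A-4 hydrolase, an enzyme that is also an aminopeptidase, was named in 5 contigs, of which 3 were tested, with log2 fold changes of 2.73, 2.60 and 2.11. All 5 were without overlap. Lysosomal aspartic protease was named in 2 contigs, of which rep_c12064 averaged 15.3 ± 5.77 CPM in nest defense and 2.65 ± 2.02 CPM before a raid, and c34735 6.79 ± 4.66 CPM in nest defense and 0.848 ± 0.284 CPM before a raid. The 3 contigs lower in nest defense were of other kinds: glutamyl aminopeptidase (c931) and the serine proteases stubble and easter, which act in appendage formation and embryonic patterning in Drosophila. Glutamyl aminopeptidase had 4.29, 4.48, 4.37 and 6.29 CPM in nest defense, against 16.1, 16.1, 8.44 and 15.0 CPM before a raid, a log2 fold change of -1.51 ± 0.25.

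Immune contigs were lower in nest defense. Their list had 5 members and was completed to 7 after values were seen. All 7 members were tested, and all 7 had log2 fold changes below 0, with a median of -1.56. In 5 the states did not overlap, against 2.53% of all tested contigs. The likelihood ratio test of edgeR called all 7 (0.423% of all tested contigs were called lower) and the quasi-likelihood test none. As called contigs they were chosen on these same libraries. Hymenoptaecin, an antimicrobial peptide of Hymenoptera, was named in 2 contigs. The contig rep_c18505 had 8.20, 2.03, 23.7 and 21.9 CPM in nest defense and 434.4, 80.5, 329.8 and 18.2 CPM before a raid. BR_688 and BR_690 were far above all other libraries, while BR_691 was below DR_694 and DR_695. The contig c24640 had 5.19, 3.72, 21.7 and 12.02 CPM in nest defense, against 316, 47.3, 185 and 23.7 CPM before a raid, with BR_691 only just above DR_694. The log2 fold changes were -3.95 ± 1.04 and -3.76 ± 0.90, with adjusted p of 0.373 and 0.314 by the edgeR quasi-likelihood test. Abaecin, a second antimicrobial peptide (c23735), had 2.26, 0, 3.54 and 2.58 CPM in nest defense and 71.1, 12.53, 46.1 and 5.44 CPM before a raid. It had the same high pair, BR_688 and BR_690, so that the antimicrobial peptides were highest in 2 of the 4 before raid pools.

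Recognition proteins of the immune group were lower by smaller and steadier amounts. Beta-1,3-glucan-binding protein, which binds fungal cell walls (c32728), had 21.8, 12.6, 14.4 and 20.6 CPM in nest defense, against 54.0, 36.7, 49.7 and 49.0 CPM before a raid. All 4 before raid libraries were above all nest defense libraries, with a log2 fold change of -1.45 ± 0.21 and an adjusted p of 0.137 by the edgeR quasi-likelihood test. A peptidoglycan-recognition protein, which binds bacterial cell walls (c18101), had 47.3, 28.8, 32.0 and 76.1 CPM in nest defense and 162, 68.0, 205 and 109.7 CPM before a raid, and BR_689 was below DR_695. Contigs matched to Limulus clotting factor C and coagulation factor IX (rep_c34381), serine proteases of clotting cascades in horseshoe crabs and vertebrates, had log2 fold changes of -1.14 and -1.26. Serpin B10 (rep_c3530), a serine protease inhibitor, averaged 85.6 ± 15.3 CPM in nest defense and 149 ± 33.2 CPM before a raid.

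Called enzymes of amino acid, purine and one-carbon metabolism were lower in nest defense with 1 exception. The list held 6 contigs at first and was completed to 18 after values were seen, so its size is no result. All 18 contigs were tested, 17 with a log2 fold change below 0 and 1 above, with a median of -1.49. The states did not overlap in 13 of the 17, against 2.53% of all tested contigs. The likelihood ratio test of edgeR called 13 lower and 1 higher, against 0.423% and 0.477% of all tested contigs, and the quasi-likelihood test none. Here too the authors' calls on these libraries had chosen the contigs. Multifunctional protein ADE2, which carries out a pair of steps of purine synthesis (rep_c24109), had 65.6, 18.0, 13.5 and 20.2 CPM in nest defense and 491, 91.4, 44.3 and 211 CPM before a raid. BR_688 stood far above the other libraries, and DR_692 was above BR_690. Amidophosphoribosyltransferase, the first committed step of purine synthesis (c369), had 144, 64.7, 60.1 and 68.3 CPM in nest defense, against 433.95, 204, 149 and 274 CPM before a raid. The order of the before raid libraries was the same, and DR_692 was the highest of nest defense, without overlap (log2 fold change -1.65 ± 0.39). Ribose-phosphate pyrophosphokinase 2-like, which makes the sugar phosphate that this step uses (rep_c1065), averaged 62.8 ± 14.7 CPM in nest defense and 152 ± 58.1 CPM before a raid. Purine nucleoside phosphorylase (rep_c3952), of purine salvage and breakdown, had a log2 fold change of -1.28.

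Amino acid breakdown was represented along several routes. Sarcosine dehydrogenase, which feeds one-carbon units (c34422), had 41.4, 31.2, 33.8 and 18.1 CPM in nest defense, against 234, 78.9, 55.1 and 138 CPM before a raid, without overlap and with a log2 fold change of -2.02 ± 0.45. The kynurenine/alpha-aminoadipate aminotransferase of tryptophan and lysine breakdown had 13.9, 3.47, 14.5 and 12.9 CPM in nest defense and 75.7, 26.9, 114 and 38.8 CPM before a raid, and here BR_690 was the highest. Tyrosine breakdown had 2 contigs at low levels, tyrosine aminotransferase with 0, 0.254, 0.312 and 0 CPM in nest defense and 2.06, 1.87, 2.94 and 1.18 CPM before a raid, and homogentisate 1,2-dioxygenase (c24082) with 3.38, 0, 1.15 and 0 CPM in nest defense and 35.0, 9.19, 3.502 and 10.3 CPM before a raid. Branched-chain amino acid breakdown had 5 contigs, all lower. They were branched-chain-amino-acid aminotransferase (-1.10), isovaleryl-CoA dehydrogenase (-0.87), methylmalonate-semialdehyde dehydrogenase (-1.23) and short/branched chain specific acyl-CoA dehydrogenase (-1.90 and -2.99), in log2 fold changes. Isovaleryl-CoA dehydrogenase (rep_c10121), of leucine breakdown, averaged 22.6 ± 2.89 CPM in nest defense and 41.3 ± 6.82 CPM before a raid. Lysine-degrading alpha-aminoadipic semialdehyde synthase was named in 2 contigs with log2 fold changes of -1.13 and -1.52. The exception was allantoicase (c15072), of the breakdown of purines by way of allantoic acid, with 1.95, 2.71, 1.25 and 6.13 CPM in nest defense and 0.386, 0.57, 0.0625 and 0.532 CPM before a raid. It was higher in every nest defense library, at low levels.

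**Figure D3:**
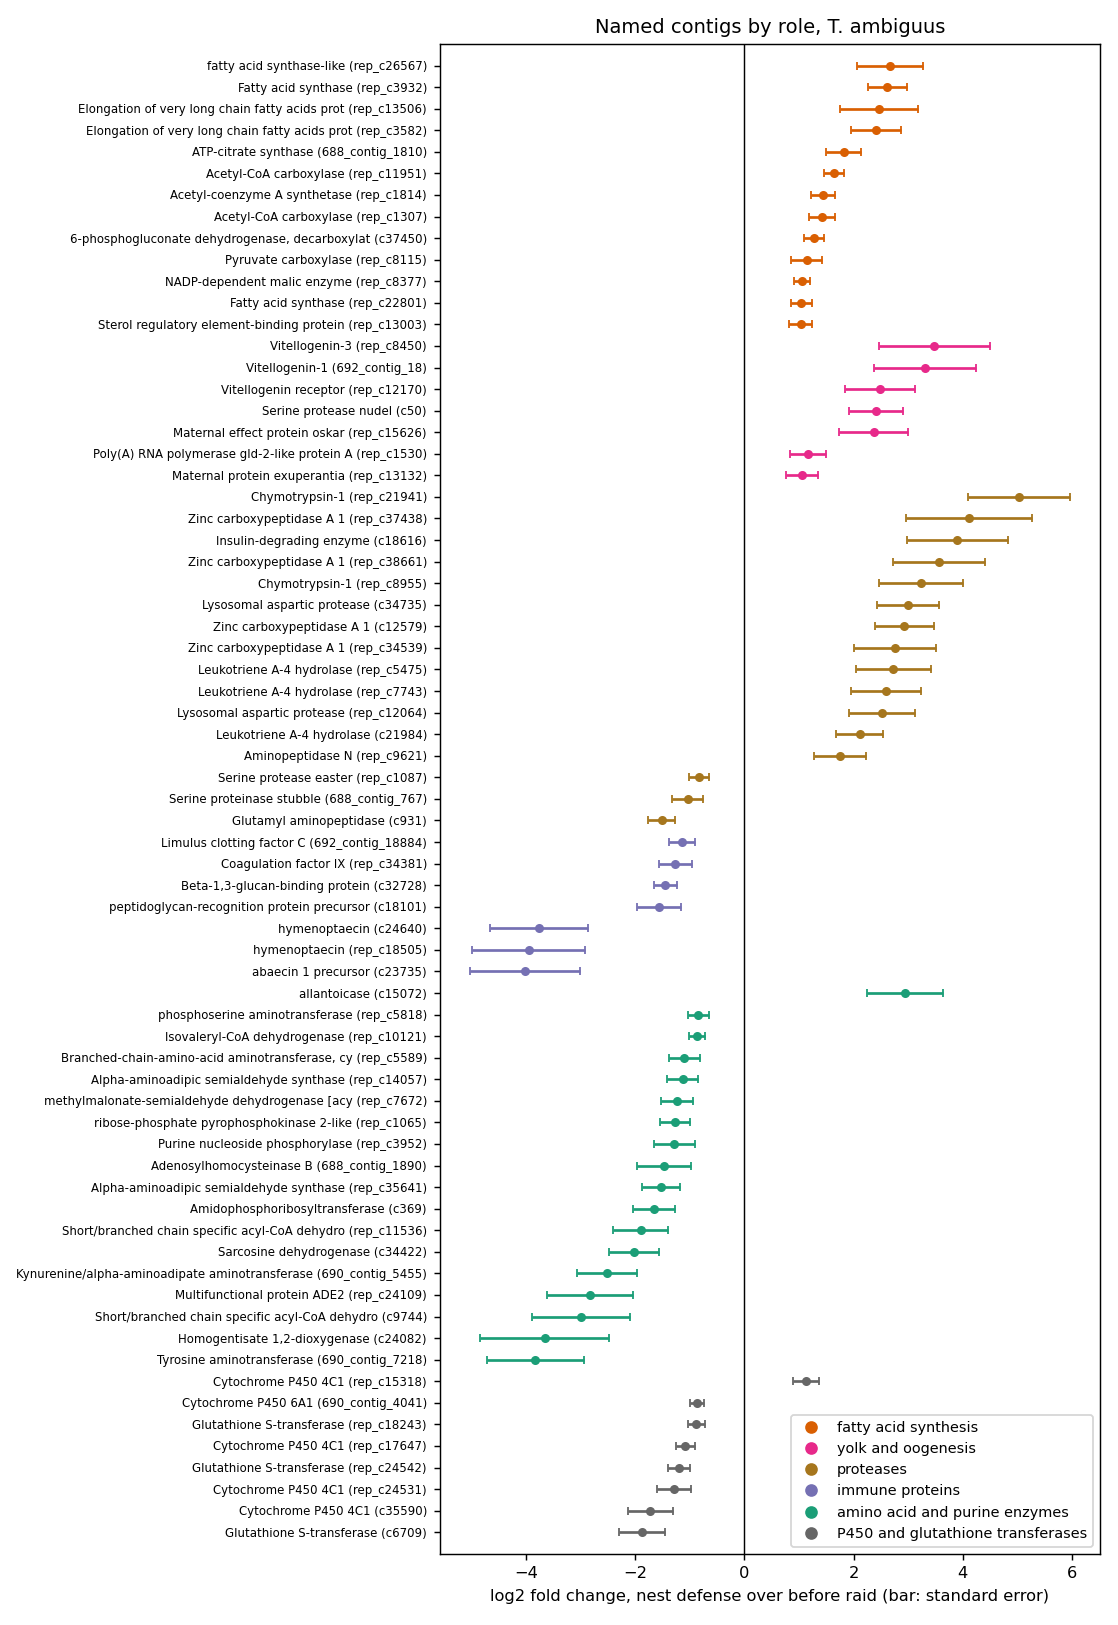
Log2 fold change (nest defense over before raid, horizontal axis) of the tested named contigs in 6 groups, with the standard error of the edgeR quasi-likelihood fit as a bar. All contigs of fatty acid synthesis and of yolk and oogenesis lie to the right of 0, all immune contigs lie to the left, and amino acid and purine enzymes lie to the left except allantoicase.

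Detoxification and sugar contigs were mostly lower in nest defense. Among cytochrome P450s and glutathione S-transferases, which modify foreign and internal compounds, 8 of 9 members were tested, with 7 lower, 1 higher and a median log2 fold change of -1.14. Cytochrome P450 6A1 had 45.4, 59.6, 55.2 and 46.6 CPM in nest defense and 89.6, 95.3, 83.4 and 108 CPM before a raid, with little spread in either state and a log2 fold change of -0.87 ± 0.13. Cytochrome P450 4C1 was named in 4 contigs that did not share a direction. The contigs rep_c17647, rep_c24531 and c35590 had log2 fold changes of -1.08, -1.28 and -1.72, and rep_c15318 had 1.13, with 19.0, 27.6, 17.2 and 12.9 CPM in nest defense, against 9.07, 8.46, 9.69 and 7.75 CPM before a raid. The 3 glutathione S-transferase contigs were lower, at -0.88, -1.20 and -1.88. Esterases E4 and FE4 (rep_c17541), hydrolases known from insecticide resistance in aphids, averaged 80.5 ± 8.11 CPM and 34.1 ± 17.3 CPM in nest defense, against 148 ± 40.4 CPM and 85.5 ± 27.3 CPM before a raid.

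All 4 contigs of sugar use were lower in nest defense without overlap, against 2.53% of all tested contigs. The authors' calls on these libraries had chosen them, and their median log2 fold change was -1.60. Alpha-amylase 1, a starch-digesting enzyme (rep_c15788), had 85.7, 85.8, 123 and 18.1 CPM in nest defense and 202, 224, 205 and 255 CPM before a raid. DR_695 stood far below the rest, and the before raid libraries were close together. An uncharacterized family 31 glucosidase averaged 3.58 ± 1.30 CPM in nest defense, against 14.1 ± 4.83 CPM before a raid. A pair of facilitated glucose transporters, which let sugar cross membranes (rep_c25757 and rep_c2706), had log2 fold changes of -1.58 ± 0.30 and -1.61 ± 0.37. The odorant-binding protein OBP16 had 32.9, 40.0, 5.72 and 21.5 CPM in nest defense and 28.9, 112, 69.8 and 148 CPM before a raid, and its states overlapped.

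Some ion transport and signalling contigs were higher in nest defense. The beta-1 subunit of the sodium/potassium-transporting ATPase, which keeps the ion gradient across animal membranes (rep_c1293), had 2962, 3079.5, 2019 and 2833 CPM in nest defense and 184, 315, 1699 and 413.6 CPM before a raid. BR_690 lay just below DR_694 and far above the other before raid libraries. The log2 fold change was 2.06 ± 0.63 with an adjusted p of 0.435, and 3.16 ± 0.31 with 0.0498 without BR_690 (edgeR quasi-likelihood test). Alkaline phosphatase (rep_c6012) was the third named contig called only without BR_690, with 118, 143, 152 and 146 CPM in nest defense, against 38.4, 44.5, 111 and 48.4 CPM before a raid, and 1.67 ± 0.14 on the log2 scale with an adjusted p of 0.0496 in that fit. A contig matched to the anion transporter prestin (rep_c4821) had 47.7, 53.1, 46.7 and 61.2 CPM in nest defense and 26.0, 26.9, 19.0 and 27.1 CPM before a raid, and was 1.07 ± 0.15 on the log2 scale with an adjusted p of 0.127. The contig named gonadotropin-releasing hormone II receptor, a family that includes the insect receptor of adipokinetic hormone (rep_c5718), averaged 73.1 ± 21.0 CPM in nest defense and 34.1 ± 13.6 CPM before a raid. Synaptic vesicle glycoprotein 2B, a transporter-like protein of synaptic vesicles in vertebrates (rep_c3931), averaged 7.11 ± 4.01 CPM in nest defense and 0.958 ± 0.299 CPM before a raid. A circadian clock-controlled protein (rep_c34443) had a log2 fold change of 0.91.

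Transposable elements and proteins related to them were 7 of the named contigs, and the 5 tested were all higher in nest defense, with a median log2 fold change of 3.30. Of the 2 that were not tested, a SETMAR-like contig (c37189) was higher in every nest defense library and THAP domain-containing protein 9 was lower, with no count in nest defense and 0.45, 0.488, 1.31 and 0.591 CPM before a raid. The list had 2 members before it was completed after values were seen. The reverse transcriptase of a jockey-like mobile element (rep_c36772) had 1.65, 2.45, 1.15 and 9.92 CPM in nest defense, against 0.0643, 0, 0.0625 and 0.0591 CPM before a raid. Its before raid counts were single reads, and DR_695 was the highest library. The X-element reverse transcriptase (rep_c19059) and a polyprotein (rep_c13042) averaged 5.75 ± 3.47 and 4.83 ± 2.74 CPM in nest defense, against 0.519 ± 0.449 and 0.48 ± 0.195 CPM before a raid. A SETMAR-like contig (c14085), matched to a protein that carries a mariner transposase in primates, had a log2 fold change of 2.99. All of these were low, and near-identical copies may share reads. In the opposite direction, argonaute-3-like, of the small-RNA pathway that silences transposons in the Drosophila germ line, had 3.83, 1.35, 1.87 and 3.87 CPM in nest defense and 11.1, 10.4, 3.88 and 11.1 CPM before a raid. BR_690 and DR_695 were practically level, and the other before raid libraries stood well above every nest defense library.

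One protein name went both ways by a wide margin. Ubiquitin carboxyl-terminal hydrolase 46, which removes ubiquitin from proteins, was named in 2 contigs. The contig rep_c38231 had 2321, 3696, 1055 and 5486 CPM in nest defense and 92.2, 562, 875 and 535 CPM before a raid, a log2 fold change of 2.60 ± 0.68. The contig rep_c8198 had 2.63, 2.54, 5.41 and 2.18 CPM in nest defense, against 229.6, 27.6, 3.31 and 50.5 CPM before a raid, a log2 fold change of -4.62 ± 1.12. In the second, BR_690 lay within the nest defense range and BR_688 was highest. Further contigs outside the lists had large differences without overlap. Leucine-rich repeat-containing protein 15 (rep_c3791) had 50.8, 134, 37.1 and 192 CPM in nest defense, against 1.80, 5.53, 27.1 and 14.7 CPM before a raid. Epidermal retinal dehydrogenase 2, a short-chain dehydrogenase (rep_c8645), averaged 19.8 ± 15.4 CPM in nest defense and 3.09 ± 1.42 CPM before a raid, and oxidoreductase yrbE (c35798) 45.3 ± 20.2 CPM in nest defense and 152 ± 55.4 CPM before a raid. Their log2 fold changes were 3.07 ± 0.82, 2.68 ± 0.64 and -1.74 ± 0.35, with adjusted p of 0.375, 0.321 and 0.269 (edgeR quasi-likelihood test). Lists for which the keywords found no named member were those of hormone carriers, cuticle, heat shock, mitochondrial respiration and ribosome. For muscle, both named contigs (titin and myogenic factor) had too few reads to test.

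Of the contigs in the authors' table without a protein name 146 were tested. Among these, 70 had log2 fold changes above 0 and 76 below 0. The states did not overlap in 59 and 54, against 2.83% and 2.53% of all tested contigs, but the authors' calls had chosen them. Several had p-values among the smallest of the whole table. A contig matched to a hypothetical ant protein (rep_c32958) had 9.85, 23.5, 11.9 and 14.9 CPM in nest defense and 0.9, 1.22, 2.56 and 1.30 CPM before a raid, and was 3.32 ± 0.40 on the log2 scale. Among those lower in nest defense, c13658 averaged 28.2 ± 10.2 CPM in nest defense and 109 ± 20.4 CPM before a raid, and rep_c35459 2.77 ± 1.22 CPM in nest defense and 15.7 ± 3.66 CPM before a raid. Smaller but even differences were those of rep_c36059, at 70.6 ± 5.74 CPM in nest defense and 120.1 ± 6.84 CPM before a raid, and c20499, at 21.8 ± 2.38 CPM in nest defense and 41.0 ± 3.003 CPM before a raid. The adjusted p of these contigs was 0.117 to 0.156 by the edgeR quasi-likelihood test, and their states did not overlap. The largest positive log2 fold change among the unnamed contigs was that of rep_c8106, at 7.01 ± 1.25, matched to a hypothetical protein of the fire ant Solenopsis invicta. It had 50.1, 359.5, 25.1 and 767 CPM in nest defense, against 0.772, 0.976, 3.75 and 3.61 CPM before a raid. Its nest defense libraries had the order of chymotrypsin-1, highest in DR_695 and DR_693. A further fire ant match, rep_c9191, had 14.8, 88.3, 131 and 68.5 CPM in nest defense and 1207, 2145, 89.5 and 1809 CPM before a raid. A contig without a match that carries the name of BR_688 had 198, 229, 239 and 149 CPM in nest defense and 734, 702, 104 and 682.3 CPM before a raid. In both, BR_690 was at a nest defense level and the other 3 before raid libraries were higher. Without BR_690, the contig without a match and rep_c34620 were the 2 contigs called lower by the edgeR quasi-likelihood test, with an adjusted p of 0.0496 each.

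Within a state, the libraries kept an order that differed by group. The authors' calls that chose these contigs used the same 8 libraries. The shares over all tested contigs are therefore given as description only. Among the 69 named contigs higher in nest defense, BR_688 was the lowest of the before raid libraries in 45 (65.2%) and BR_690 the highest in 33 (47.8%), against 25.1% and 26.4% over all tested contigs. DR_694 was the lowest nest defense library in 43 (62.3%), against 27.5% over all, and DR_693 in 0. Among the 57 named contigs lower in nest defense the before raid order was turned round, with BR_688 the highest in 27 (47.4%) and BR_690 the lowest in 31 (54.4%). Fatty acid synthesis was lowest in BR_688 for 11 of 13 contigs and highest in BR_690 for 11 of 13. In amino acid and purine enzymes BR_688 was highest for 13 of 18 and BR_690 lowest for 13 of 18. DR_694 was the lowest nest defense library for 7 of 7 yolk and oogenesis contigs and 11 of 16 proteases, but for 3 of 13 fatty acid contigs, where DR_692 was lowest for 9. DR_693 was the lowest nest defense library for 7 of 7 immune contigs. Contigs of a group come from the same 8 pools and are not independent of each other, and what set the pools apart was not tested.

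**Figure D4:**
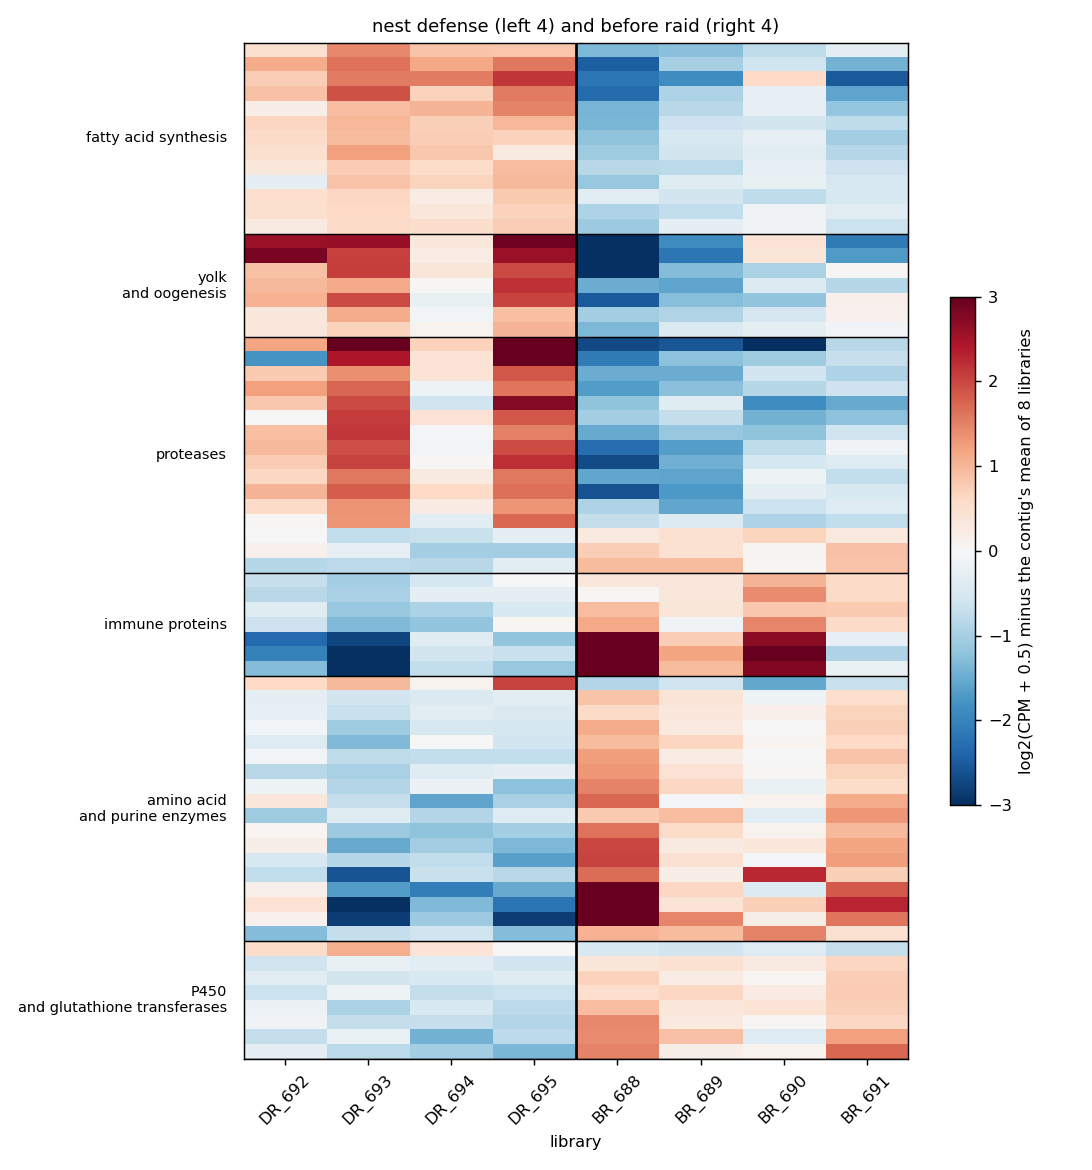
Each row is a tested named contig in 1 of 6 groups and each column a library, with nest defense in the left 4 columns, colored by log2(CPM + 0.5) minus the contig's mean over the 8 libraries (red above, blue below, limits at 3 and -3). BR_688 is the bluest before raid column in the fat and yolk groups and the reddest in the amino acid group, and DR_694 is the palest nest defense column in yolk and protease rows.

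A number of contigs were seen in one state only. Of the 380 contigs in the authors' table, 40 had no count in any nest defense library and 23 had none in any before raid library. Over all 43664 contigs the numbers were 273 and 215, and the authors' calls had chosen the 380. Named among the 40 were cytochrome P450 6B2, with 2.19, 0, 1.88 and 1.89 CPM before a raid, and titin, the giant muscle protein, with 1.09, 0.732, 0.75 and 1.06 CPM. Against a floor of 3 counts over the 4 nest defense libraries they were at least 24.8-fold and 14.5-fold lower there. Of the 380 contigs 264 came from the joint assembly, 74 carry the name of a before raid library and 42 that of a nest defense library. Over all contigs the numbers were 32015, 8255 and 3394. By mean CPM 8 of the 74 and 36 of the 42 were higher in nest defense, against 154 of the 264. Among these called contigs, the library name or joint assembly thus moved with direction. The share higher in nest defense among all contigs of each kind is not given here. The part of the assembly in these contigs was not tested.

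Some proteins were also named in the called contigs of other species, each fitted alone. Libraries that the study removed as outliers were left out of these fits although their counts are in the tables, 1 per state in each of the other hosts and 1 of the raiding state in T. pilagens. With them in the fit, a setting added after the data were seen, every tested contig that shared a protein name kept its direction. In T. longispinosus, a host with 3 defending and 3 before raid libraries, 10 tested contigs shared a name with tested contigs of T. ambiguus. All 10 had log2 fold changes above 0, with 3 of them named leukotriene A-4 hydrolase and 2 chymotrypsin-1. The authors' calls on those libraries chose these contigs. None passed the edgeR quasi-likelihood test, where 0% of contigs did. Nudel there had 11.8, 20.7 and 25.9 CPM in nest defense, against 1.64, 2.23 and 2.29 CPM before a raid. Its log2 fold change was 3.24 ± 0.34 (adjusted p 0.523), beside 2.41 ± 0.49 in T. ambiguus. The more abundant of its 2 chymotrypsin-1 contigs averaged 1041 CPM in nest defense and 63.1 CPM before a raid, a log2 fold change of 4.04 ± 0.78. In T. curvispinosus, with 3 and 3 libraries, arylphorin subunit alpha averaged 34.1 CPM in nest defense and 6.83 CPM before a raid, a log2 fold change of 2.31 ± 0.41. Names in these tables also exist for called contigs only, so a protein missing from one is no sign that it was alike in the states.

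In T. pilagens, the raider of T. ambiguus, the comparison is of raiding workers with workers from outside the raiding season, 3 against 4 libraries, and no test was made between the species. A total of 86 tested contigs shared a name with tested contigs of T. ambiguus, 28 with a log2 fold change above 0 and 58 below 0. Of them 54 passed the edgeR quasi-likelihood test, against 0.94% of all tested contigs higher and 1.94% lower, but the authors' calls on those libraries chose them. There the vitellogenin receptor contig had 9.14, 7.12 and 7.01 CPM in raiding workers, against 17.7, 12.98, 10.5 and 24.0 CPM in non-raiding workers. It was lower in every raiding library, at -1.07 ± 0.29 on the log2 scale (adjusted p 0.112, and 0.0434 with the removed library, edgeR quasi-likelihood test), where the T. ambiguus receptor was higher in every defending library. Fatty acid synthase contigs had no common direction in T. pilagens, although most of those that passed the test were lower in raiding workers. Of 19 tested fatty acid synthase contigs 7 had log2 fold changes above 0 and 12 below 0, with a range of -6.36 to 1.92. The edgeR quasi-likelihood test called 1 of those above 0 and 10 of those below 0. The most abundant (rep_c8139) averaged 1132 CPM in raiding and 2898 CPM in non-raiding workers (-1.36 ± 0.14). The 4 Delta(11) desaturase contigs were also split, with log2 fold changes of -1.56, -1.38, 0.48 and 0.78, and the more abundant ones were lower in raiding workers. Acetyl-coenzyme A synthetase was at -0.49 ± 0.10, with an adjusted p of 0.0385, and 0.102 with the removed library. Purine nucleoside phosphorylase had log2 fold changes of -2.09 ± 0.18 and -2.04 ± 0.22 in its 2 T. pilagens contigs and branched-chain-amino-acid aminotransferase -0.97 ± 0.11, beside -1.28 ± 0.37 and -1.10 ± 0.28 in T. ambiguus. Smoothened, the signal-passing membrane protein of the Hedgehog pathway, averaged 110.4 CPM in raiding and 244.7 CPM in non-raiding T. pilagens workers (-1.15 ± 0.07, adjusted p 0.00104). Its T. ambiguus contig (rep_c37459) had 249, 177, 198 and 149 CPM in nest defense, against 577, 236, 349.6 and 431.7 CPM before a raid, a log2 fold change of -1.04 ± 0.27.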

How the data were processed

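Whole ants were ground for RNA extraction, and each library was sequenced as 1 sample. The authors built an assembly for T. ambiguus, mapped trimmed reads to it and deposited raw read counts per contig (whole numbers). FastQC, Trimmomatic, TopHat2 2.0.13 and Bowtie are the tools in the submitters' processing notes, and the study's methods name eXpress for counting. Contigs were kept with filterByExpr of edgeR 4.0.16 (minimum count 10, in R 4.3.3), scaled by TMM and fitted by state with glmQLFit and glmQLFTest, with Benjamini-Hochberg adjustment over all 33331 contigs and a threshold of 0.05. A fold change's SE was taken as its absolute log2 value over the root of F. CPM are on TMM-scaled library sizes, and log2 CPM used a prior count of 2. The alternatives were the likelihood ratio test of edgeR with and without the filter, DESeq2 1.42.0, limma 3.58.1 (voom with quality weights), robust dispersions, RLE size factors, no filter, and each library left out. The fits were tested on simulated data.

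Protein names are the best matches in the authors' deposited table of called contigs. The authors deposited the e-value of each match as a score, which supports no result here, and their own fold changes and p-values were not used, nor were 64 further per-sample columns in the tables read. The contigs, gene lists and alternatives were chosen with earlier results of these data known, and keywords of several lists were completed or trimmed after values were seen. The rule for named contigs took every match to the Delta(11) desaturase, vitellogenins and their receptor, trypsins or hymenoptaecin. It also took the 12 largest changes in each direction among named contigs of at least 5 CPM without overlap (1 per name), up to 4 of smallest p per list, the 5 of smallest p in each direction, and contigs called with 1 library left out. Other contigs were picked as examples after their values were seen. A fold against a state at 0 uses a floor of 3 counts over its libraries, which covers counting error only.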

Additional observations from a re-analysis of the deposited data

Results flagged for a closer look

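A library far from the other 3 of its state was found in 15 of 152 sets of 4 libraries (76 contigs, 2 states), by the limit of Dixon's ratio on log2 CPM, which chance passes in about 1 in 20. No explanation was tested for any of them. BR_690 was the low library before a raid in 5 contigs: esterase E4 with 89.1 CPM, a contig without a match named after BR_688 with 104 CPM, argonaute-3-like with 3.88 CPM, glutamyl aminopeptidase (c931) with 8.44 CPM and prestin (rep_c4821) with 19.0 CPM. BR_688 was low in a polyprotein (rep_c13042, 0.193 CPM) and in the hypothetical protein of rep_c36059 (109.9 CPM), and BR_689 in the jockey-like element (rep_c36772, 0 CPM, where the other 3 had 0.0591 to 0.0643 CPM).

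In nest defense, DR_694 was low in vitellogenin-3 (rep_c8450, 1597 CPM) and DR_695 in the hypothetical protein of c20499 (18.2 CPM). DR_693 was low in kynurenine/alpha-aminoadipate aminotransferase (3.47 CPM) and abaecin (c23735, 0 CPM) and high in cytochrome P450 4C1 (rep_c17647, 37.8 CPM). DR_692 was high in amidophosphoribosyltransferase (c369, 144 CPM) and DR_695 in glutamyl aminopeptidase (c931, 6.29 CPM).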

How the results depend on the processing

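The count of contigs called between the states was 0 by the edgeR quasi-likelihood test, and also 0 with robust dispersions, RLE size factors or no filter. It was 300 by the edgeR likelihood ratio test, 347 by that test without a filter, 470 by DESeq2 and 5 by limma-voom with quality weights. Leaving out 1 library gave 0 to 5 contigs, with 5 only without BR_690. Contigs whose states do not overlap numbered 1786, and 2543 to 3375 with 1 library left out, since 3 libraries overlap less easily than 4 by construction. CPM from library totals (1757) and all contigs with at least 1 count (2117) stayed within 1.5 times of that. All 1140 fits of the 76 contigs named by rule under the alternatives kept their direction. These contigs were chosen on the same counts, many by small p or large change, so refits could hardly turn their direction. Of the 76, 66 passed the threshold by the likelihood ratio test, 61 by that test without a filter, 67 by DESeq2, 5 by limma-voom and 5 without BR_690. No paired analysis was possible because the labels give the 2 states no shared replicate numbers and do not say which libraries share colonies, although the study pooled the same colonies in both states. How a term for colony would move the count of 0 was not tested. At 10097289 to 17109880 counts per library, contigs of a few CPM are limited by counting as well as by the biological coefficient of variation of 0.44.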
